A study of Arabidopsis thaliana with 4 samples.

Results

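The CCT motif is a short, basic stretch of protein named after CONSTANS, CONSTANS-LIKE and TOC1, and it lies near the carboxyl end of many plant regulators of flowering, the circadian clock and light responses. In CONSTANS and its relatives it stands with B-boxes, in the pseudo-response regulators of the clock with a receiver-like domain, and in a further group of proteins it is the only known domain. The genes described here belong to that group: 10 Arabidopsis genes for CCT motif proteins without B-boxes, out of 13333 genes with a probe set named for them alone. Each of the 10 had exactly 1 such probe set, so taking the brightest probe set per gene removed none. AT5G53420 was chosen by its difference between GR24 and mock in these same arrays. Its change with GR24 is therefore given as a description with no test, and the other 9 genes were taken as members of the protein family, in a list assembled with results of these arrays known.

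RNA came from whole 14-day-old seedlings of the Col strain carrying the max3 mutation. MAX3 encodes a carotenoid cleavage dioxygenase, and max3 plants do not make strigolactones, a hormone class known for holding back shoot branches. On 2 arrays the RNA came from seedlings given GR24, an artificial strigolactone, at 1 µM for 90 min, and on 2 arrays from mock seedlings given DMSO, the solvent, for the same time. Both groups carried max3, and wild-type seedlings are not analysed here, so the comparison shows added strigolactone in plants that lack their own. Replicates 1 and 2 are, per the series' description, independent experiments that each started from new seedlings, and GR24 was compared with mock within each replicate number. The values are log2 signals from single-channel oligonucleotide arrays, processed with RMA (background correction, equalised distributions and 1 value per probe set). The medians of the arrays ran from 7.03 to 7.06, and having 2 arrays a group limits how precise any value is. Over all 22746 probe sets the median difference between GR24 and mock was 0.01 on the log2 scale. MAX3 itself had 0 named probe sets and is not analysed here. Of 16 marker genes of shoot and root, only the root genes PYK10 and EXPA7 had a named probe set. PYK10, a root beta-glucosidase gene, had values from 13.1 to 13.3 and EXPA7, a root hair expansin gene, from 4.79 to 5.58; the shoot markers were not analysed here. In RNA from whole seedlings, fewer cells of a type and less RNA per cell cannot be told apart.

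AT5G53420 stood at 9.98 and 9.50 on the GR24 arrays of replicates 1 and 2, against 8.87 and 8.42 on the mock arrays. Both GR24 values were above both mock values. The difference was 1.11 within replicate 1 and 1.09 within replicate 2, or 2.16-fold and 2.13-fold. The estimate over both pairs was a log2 difference of 1.1 ± 0.10 (moderated SE, n = 2 pairs), 2.14-fold, and it ranked 7 among all 22746 probe sets ordered from the highest to the lowest change with GR24. The pairs disagreed by 0.02, against a median disagreement of 0.154 over all probe sets. These are the pairs by which the gene was chosen, so their agreement is a description and no independent support. No function beyond the CCT motif is assigned to AT5G53420 here.

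**Figure D1:**
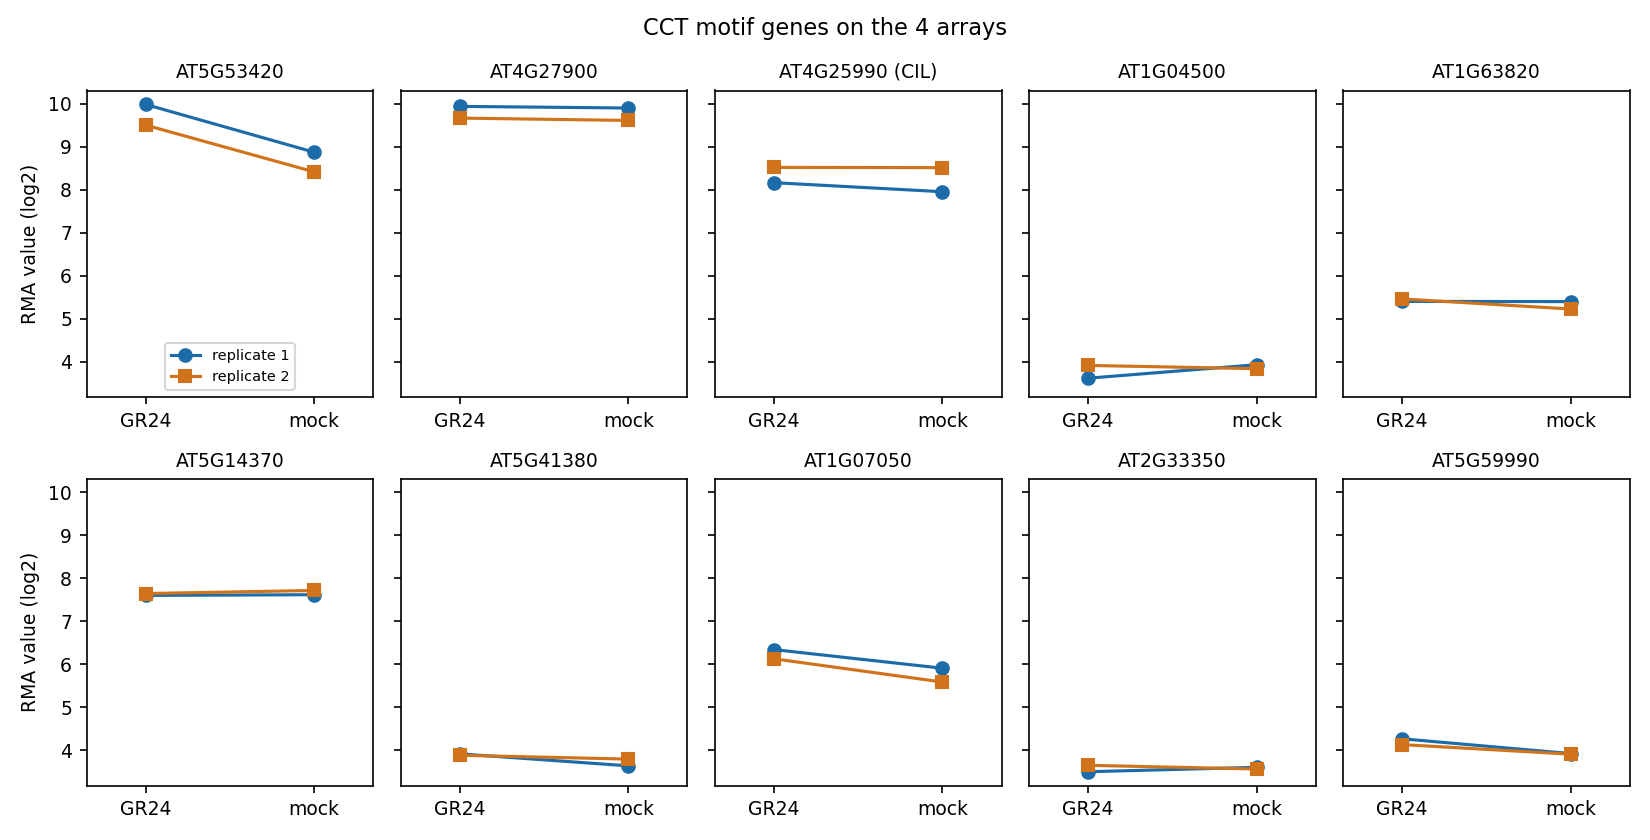
RMA values (log2) of the 10 CCT motif genes on the 4 arrays, with GR24 on the left and mock on the right of each panel; each line joins the arrays of 1 replicate number. Both lines slope down from GR24 to mock for AT5G53420 and less steeply for AT1G07050, while for CIL the replicates are farther apart than the treatments; a level in one panel cannot be set against a level in another, since each probe set has its own response.

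Among the 9 genes other than AT5G53420, 0 passed the test of GR24 against mock. The test was limma with replicate number in the model and adjusted p under 0.05 over all probe sets. Over all probe sets 0.303% passed. At an unadjusted p under 0.05 there were 2 of the 9, AT1G07050 and AT5G59990, against 7.47% of all probe sets. With limma's default prior variance 1 of the 9 passed, against 1.24% of all probe sets, and without the block 0 of the 9, against 0% of all. The median log2 difference of the 9 was 0.11, and single genes lay between -0.12 and 0.49. For 6 of the 9 GR24 was above mock in both pairs, which held for 28.7% of all probe sets. For 4 of the 9 both GR24 values lay above both mock values, against 12.9% of all probe sets, and for 0 of the 9 both lay below, against 10.2%. For 1 of the 9 GR24 was below mock in both pairs, against 23.3%. Some of these counts rest on small margins or dim signals. Among the 6, CIL was above mock by only 0.006 in replicate 2 and AT1G63820 by only 0.006 in replicate 1. AT1G63820 is also among the 4, as are AT5G41380 and AT5G59990, whose signals lay below the lower quartile of all probe sets. The list was not chosen without sight of the data, and these shares were not tested.

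AT1G07050 had the largest difference among the 9. It has been described under the name FITNESS as a CCT protein that affects levels of reactive oxygen species and defence. Its values were 6.34 and 6.13 on the GR24 arrays, against 5.91 and 5.59 on the mock arrays, and the groups did not overlap. Within pairs GR24 was above mock by 0.43 and 0.54, and the estimate was 0.49 ± 0.10 (moderated SE, n = 2 pairs), 1.4-fold, with a 95% interval from 0.26 to 0.72. The 95% intervals given here are not adjusted for the number of probe sets, unlike the adjusted p. The adjusted p of AT1G07050 was 0.135 in limma's paired model with the prior variance fitted by maximum likelihood, so it did not pass. With limma's default prior, which is less strict here, the adjusted p was 0.0297, and over the other settings with all arrays kept it ran from 0.0542 to 1.0. In size the difference was at the 98.9th percentile of all probe sets.

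CIL (AT4G25990) encodes CIA2-LIKE, which with its relative CIA2 is known to promote expression of nuclear genes for protein import into plastids and for plastid ribosomes. It had values of 8.16 and 8.52 on the GR24 arrays, against 7.95 and 8.51 on the mock arrays. The groups overlapped, since GR24 replicate 1 lay below mock replicate 2. The difference was 0.21 in replicate 1 and 0.01 in replicate 2, with an estimate of 0.11 ± 0.11 (moderated SE, n = 2 pairs; limma adjusted p = 0.904). The 95% interval ran from -0.13 to 0.35. CIA2 itself and the 6 plastid import genes listed beside it are not analysed here, as they had no named probe set.

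**Figure D2:**
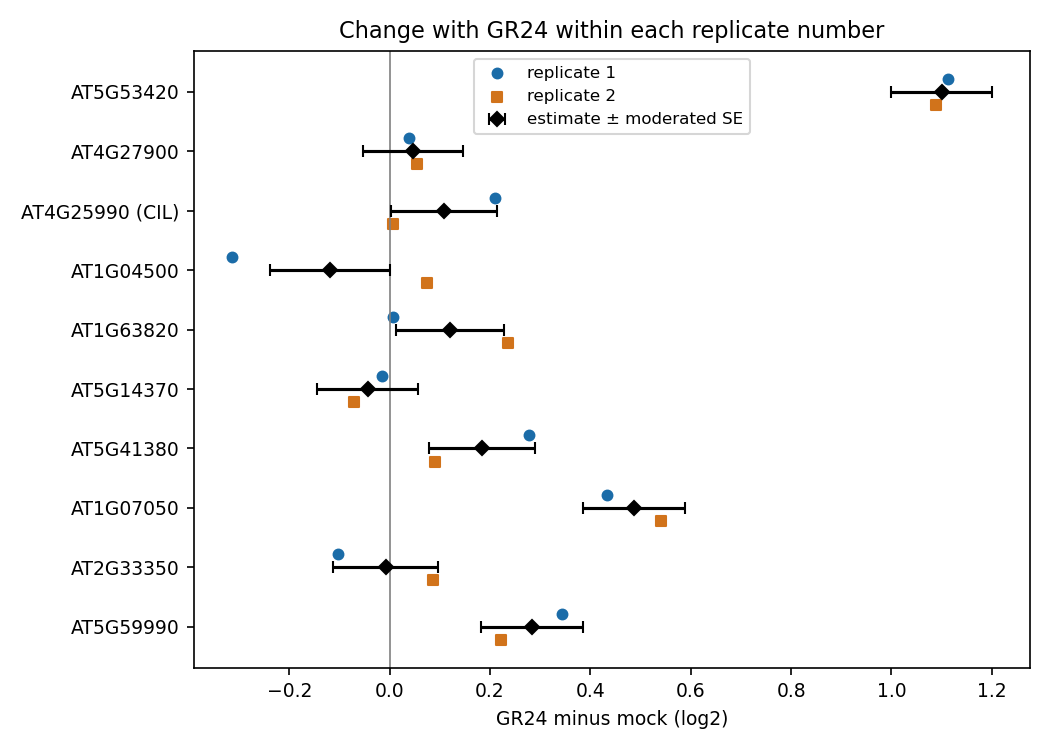
GR24 minus mock (log2) for each CCT motif gene within replicate 1 (circles) and replicate 2 (squares), with the estimate over both pairs and its moderated SE (diamonds with bars). AT5G53420 is at 1.1, AT1G07050 at 0.49 and AT5G59990 at 0.28, and the other 7 estimates lie between -0.12 and 0.18.

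The remaining genes with signals above the lower quartile of all probe sets (4.72) were AT4G27900, AT5G14370 and AT1G63820, known mainly by their CCT motif. AT4G27900 had 9.94 and 9.67 with GR24, against 9.90 and 9.61 with mock. Its groups overlapped, and its pairs disagreed by as little as those of AT5G53420, at 0.02. The estimate was 0.05 ± 0.10, with a 95% interval from -0.18 to 0.27. AT5G14370 had 7.60 and 7.64 with GR24, against 7.62 and 7.72 with mock, and an estimate of -0.04 ± 0.10. It was the only one of the 10 below mock in both pairs, by 0.02 and 0.07. AT1G63820 had 5.40 and 5.46 with GR24, against 5.40 and 5.23 with mock, so that nearly all of its estimate of 0.12 ± 0.11 came from replicate 2. The adjusted p of these 3 genes in the paired limma model lay between 0.894 and 0.971.

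Below the lower quartile of all probe sets lay AT5G59990, AT5G41380, AT1G04500 and AT2G33350, and no detection calls were used here, so their signals have no stated background. AT5G59990 had 4.27 and 4.13 with GR24, against 3.92 and 3.91 with mock. The groups did not overlap, and the estimate was 0.28 ± 0.10 (limma adjusted p = 0.518, unadjusted 95% interval from 0.05 to 0.52). An offset of 16 on the linear scale, which compresses dim signals, gave 0.145. AT5G41380 had 3.92 and 3.88 with GR24, against 3.64 and 3.79 with mock, and an estimate of 0.18 ± 0.11 (limma adjusted p = 0.791), which was 0.0854 with the offset and 0.106 without mock replicate 1. AT1G04500 and AT2G33350 differed in opposite directions in the pairs. AT1G04500 was below mock by a log2 difference of -0.31 in replicate 1 and above it by 0.08 in replicate 2, and its pairs disagreed more than 89.6% of probe sets. Its estimate was -0.12 ± 0.12, and -0.0544 with the offset. AT2G33350 differed by -0.10 and 0.09, and its estimate was -0.01 ± 0.11. Such opposite signs were found for 47.8% of all probe sets.

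The difference between the independent experiments, replicate 2 minus replicate 1 with treatment held constant, played no part in choosing the genes. Its test shares the residual spread with that of GR24 against mock, so for AT5G53420 the test is not free of the choice. In this contrast 2 of the 10 genes passed (limma, adjusted p under 0.05), against 16.7% of all probe sets, which is near the background. The 2 were 1 gene higher in replicate 2, against 8.14% of all probe sets, and 1 lower, against 8.59%. AT5G53420 fell in replicate 2, by 0.48 between the GR24 arrays and by 0.46 between the mock arrays. The estimate was -0.47 ± 0.10 (moderated SE, limma adjusted p = 0.0171), 0.723-fold. Its GR24 arrays in replicate 2 nonetheless lay above its mock arrays in replicate 1, at 9.50 against 8.87. Without treatment in the model its call ended (limma adjusted p = 0.519), which left 1 of the 10, against 11.1% of all probe sets. That fit counts the treatment difference of 1.1, by which AT5G53420 was chosen, as spread. The fits with single arrays left out have no treatment term either, and mix that difference into the estimate. There the estimate lay between -1.02 without mock replicate 1 and 0.0869 without GR24 replicate 1. CIL went the other way. It was higher in replicate 2 by 0.36 between the GR24 arrays and by 0.56 between the mock arrays, and the estimate was 0.46 ± 0.11 (limma adjusted p = 0.0224), 1.37-fold. That difference exceeded its difference between treatments of 0.11. The call of CIL ended without GR24 replicate 2, without mock replicate 1 and without mock replicate 2, where far fewer of all probe sets passed. With single arrays left out its estimate lay between 0.353 and 0.563.

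**Figure D3:**
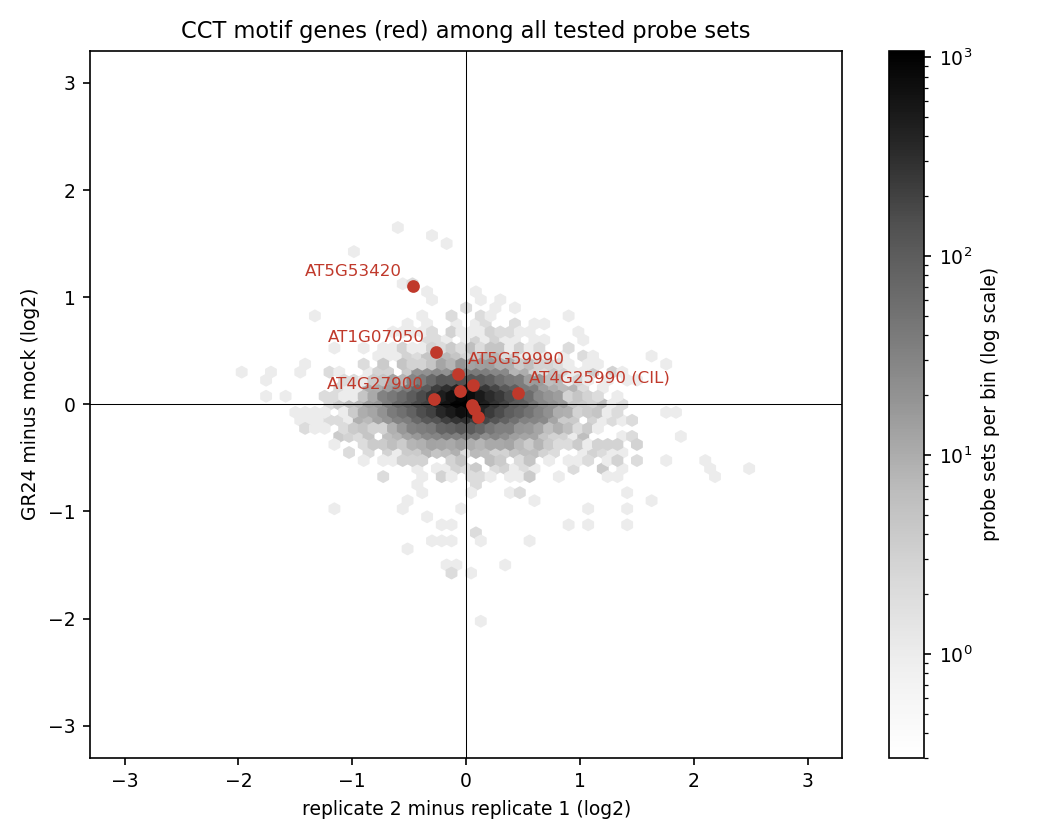
Each tested probe set by replicate 2 minus replicate 1 (horizontal, log2) and GR24 minus mock (vertical, log2); grey hexagons count probe sets on a log scale and red points are the 10 CCT motif genes. AT5G53420 sits at -0.47 and 1.1, CIL at 0.46 and 0.11, and AT1G07050 at -0.27 and 0.49.

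The other 8 genes did not pass between replicates. AT4G27900 differed by -0.27 between the GR24 arrays and by -0.29 between the mock arrays, with an estimate of -0.28 ± 0.10 (limma adjusted p = 0.0922). AT1G07050 differed by -0.21 and -0.32, with an estimate of -0.27 ± 0.10 (limma adjusted p = 0.111). The remaining 6 estimates lay between -0.07 and 0.10. For 4 of the 9 genes other than AT5G53420, namely AT4G27900, CIL, AT5G14370 and AT2G33350, the difference between replicates was larger than that between treatments, against 68.4% of all probe sets. In this contrast the seedlings of an experiment and the handling of its arrays cannot be told apart. The root marker EXPA7 was also higher in replicate 2, by 0.67 (limma adjusted p = 0.00535), and PYK10 differed by 0.11; between GR24 and mock they differed by -0.12 and -0.04. Their part in the differences of the CCT motif genes was not tested.

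The genes whose pattern over the 4 arrays was nearest to that of AT5G53420 were sought among 13323 other genes, by the Euclidean distance between log2 values after subtracting each probe set's own mean. This measure uses the change by which AT5G53420 was chosen and is a description over 4 arrays. The nearest were AT2G34140, at a distance of 0.228, and AT1G29160, at 0.322, which both encode Dof zinc finger transcription factors. They were followed by the AP2/ERF factor gene AT5G07580 (0.398), the cytochrome P450 gene CYP71B22 (0.478), AT3G19850 (0.483) and AT1G78170 (0.489). The median distance over all these genes was 1.19. AT2G34140, for example, had 8.78 and 8.48 with GR24, against 7.75 and 7.52 with mock, and its difference between replicates was -0.26, smaller than that of AT5G53420. Of the other CCT motif genes the nearest was AT1G07050 at 0.648, followed by AT5G59990 at 0.908. AT4G27900 was at 1.07, and CIL and AT1G04500 at 1.36.

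**Figure D4:**
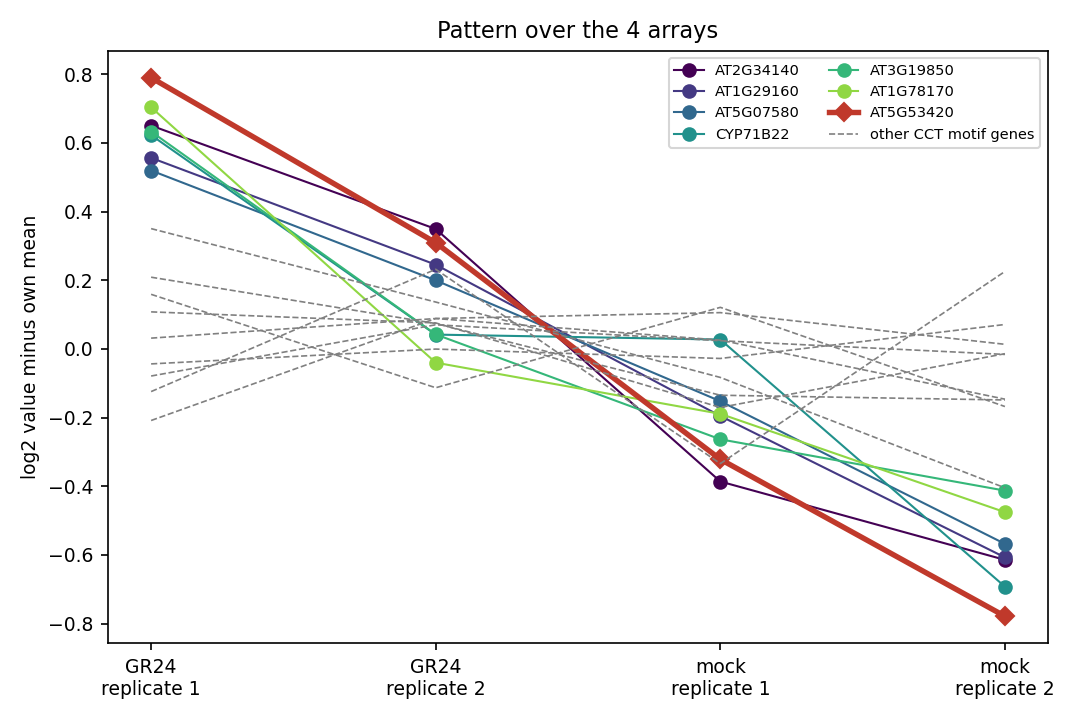
Log2 value minus the probe set's own mean on each of the 4 arrays, GR24 on the left, for AT5G53420 (red diamonds), its 6 nearest genes (coloured lines) and the other 9 CCT motif genes (dashed grey). The 6 nearest genes follow the order of AT5G53420, high with GR24 and lower in replicate 2, while the dashed lines are flatter.

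Of 60 further genes listed for CCT, B-box, clock, flowering, NF-Y and plastid import functions, only 2 could be followed by a named probe set. Of these 0 passed between GR24 and mock in limma's paired model, against 0.303% of all probe sets, and 0 had an unadjusted p under 0.05, against 7.47%; with 2 genes this says nothing of the lists. Without the block 0 passed, against 0% of all, and with the default prior 0, against 1.24%. COL13 (AT2G47890), a CONSTANS-like gene with B-boxes and a CCT motif, had 8.29 and 8.47 with GR24, against 8.24 and 8.58 with mock. GI (GIGANTEA), which acts in the clock and in the photoperiod path above CONSTANS, had 8.65 and 8.60 with GR24, against 8.19 and 8.90 with mock. GI was thus above mock in replicate 1 and below it in replicate 2, and its estimate was 0.08 ± 0.17 (moderated SE, limma adjusted p = 0.968). The other 58 listed genes, CONSTANS and the pseudo-response regulators among them, are not analysed here. Beside the 10 genes on the chromosomes, the nearest protein-coding genes, 2 on each side, gave 21 genes with a named probe set. Of these 0 passed between GR24 and mock in limma's paired model, against 0.303% of all probe sets, and their log2 differences lay between -0.635 and 0.381. The lowest was that of AT5G41400, near AT5G41380, with the smallest adjusted p of these genes (limma adjusted p = 0.0725). The immediate neighbour AT5G53410 of AT5G53420 differed by 0.10 ± 0.11, and AT5G53400 (BOB1), next after it, by 0.38 ± 0.10 (limma adjusted p = 0.285).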

How the data were processed

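The authors deposited log2 values; RMA is the tool that the submitters' processing notes name, and its version and the build are not given in the sources used here. Of 22810 probe sets, 64 controls were left out and 22746 tested, dim ones included. Gene names were taken from GEO's platform annotation and updated by RefSeq gene identifier (13513 probe sets with 1 gene, 503 with several, 8730 not listed and not used for named genes). CIL was matched by its gene identifier. All 10 probe sets carry the plain suffix that the platform uses for probes designed against 1 gene, but probe sequences were not used here, so signal from close relatives was not examined.

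Tests were two-sided linear models in R 4.3.3 with limma 3.58.1, with group and replicate number as terms (1 residual degree of freedom), Benjamini-Hochberg adjustment over all probe sets and a threshold of 0.05. The prior variance was estimated by maximum likelihood from a scaled F distribution (7.62 prior degrees of freedom, prior SD 0.107), so each SE rests mostly on the prior shared by all probe sets. Scripts were tested on simulated data. Same-numbered arrays' deviations from their group means correlated at 0.712 across probe sets, and the series' description states separate seedlings for each experiment. Nothing says which cultures were separate within an experiment, so p-values cover the spread among these arrays only. The genes, gene lists and prior were chosen with earlier results of these data known. Named genes were all 10 members, list genes with a named probe set and the 6 nearest patterns; the neighbouring genes were added after the data had been seen. Alternatives were no block, limma's default prior, trend and robust moderation, repeated quantile normalization, median centring, an offset of 16, leaving out probe sets under the lower quartile, leaving out each array, and a threshold of 0.1.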

Additional observations from a re-analysis of the deposited data

How the results depend on the processing

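With 2 arrays per group, each value rests on few arrays, and 4 of the 10 CCT motif genes lay below the lower quartile of signals, with no detection calls used. Without the replicate block 0 of 22746 probe sets passed between GR24 and mock in limma (341 at an unadjusted p under 0.05), against 69 with the block; the block holds the difference between experiments out of the residual. Under the default prior of limma it became 281, under trend and robust settings 261, at the looser threshold of 0.1 it was 110, with the offset of 16 it was 24, and it was 0 with any single array left out. Of the 9 genes other than AT5G53420, 1 passed with the default prior, AT1G07050, and 0 with any array left out. Between replicates 3805 probe sets passed, 2522 without treatment as a term, and 0 to 2654 when 1 array was left out; of the 10 genes 2 passed, 1 without treatment as a term and 0 to 1 with single arrays left out. AT4G27900 passed between replicates at the threshold of 0.1. The causes were not tested, other than that these fits without single arrays have no block, fewer arrays and mix the other factor into the difference; the lone array is assumed to vary like the other group.

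The log2 difference between GR24 and mock of AT5G53420 lay between 1.07 and 1.1 with all arrays kept and between 0.859 and 1.34 with single arrays left out, and that of AT1G07050 between 0.327 and 0.648. The genes whose GR24 and mock values overlapped changed sign with some array left out. AT4G27900 lay between -0.0982 and 0.191, CIL (AT4G25990) between -0.172 and 0.388, and AT1G04500 between -0.268 and 0.0291. AT5G14370 lay between -0.0932 and 0.00582, and AT2G33350 between -0.0828 and 0.0664. AT1G63820 (0.0342 to 0.206), AT5G41380 (0.106 to 0.262) and AT5G59990 (0.216 to 0.351) stayed above 0. In these genes, AT5G53420 and AT1G07050, both GR24 values lay above both mock values. Leaving out an array in a fit without the block therefore could not change their sign. Between replicates the ranges that crossed 0 were -1.02 to 0.0869 for AT5G53420, -0.0547 to 0.26 for AT1G04500, -0.175 to 0.06 for AT1G63820, -0.077 to 0.201 for AT5G41380, -0.538 to 0.00288 for AT1G07050 and -0.246 to 0.0975 for AT5G59990. With all arrays kept, no gene of the 10 changed sign under any setting run. The mean over several probe sets of a gene was not run, since each gene had 1.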
